A study of Homo sapiens with 6 samples.

Results

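Aminoacyl-tRNA synthetases are the enzymes that join each amino acid to its transfer RNA. The genes described here are the 19 cytosolic synthetases (subunits counted as separate genes), 16 mitochondrial synthetases and 3 scaffold proteins of the multisynthetase complex, chosen by their symbols. All 38 were found among the 30618 genes of the count table, and 37 of them passed the filter on low counts. The exception was VARS2, the mitochondrial valyl enzyme, which had between 6 and 15 reads per library and was not tested. Among the members a name ending in 2 marks a mitochondrial enzyme, except for AIMP2, which is a scaffold protein.

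The libraries came from ARPE-19 cells, an established line of human retinal pigment epithelium, kept in 50 mM glucose as a model of diabetic retinopathy. The NC group (n = 3) received a non-targeting control siRNA and the siEIF1 group (n = 3) received an siRNA against EIF1, the initiation factor that guards start codon selection. Both groups were in high glucose, so the comparison is between the siRNAs in high glucose and does not show an effect of glucose. The methods name 1 siRNA sequence against EIF1 and describe the replicates as independent. No library is labelled with another EIF1 siRNA. An effect of EIF1 loss therefore cannot be told apart from other effects of the siRNA sequence. The libraries held from 26499929 to 31431479 counts, and the members took from 137599 to 151590 of them in each library. EIF1 fell from 1262 ± 39.4 to 105.3 ± 2.99 CPM (counts scaled to a common library size; SD, n = 3 each), so that 8.34% remained (edgeR, adjusted p = 1.08e-13). Of the markers of pigment epithelium, KRT8, KRT18, MITF and OTX2 were well counted (from 47.22 to 1490 CPM), PMEL, LRAT and RLBP1 were at or under 1.64 CPM, TYR had from 0 to 2 reads, and RPE65 and TTR were not listed in the count table. RLBP1, at 0.530 ± 0.124 CPM in the NC and 1.55 ± 0.1 CPM in the siEIF1 libraries (SD, n = 3 each), was called higher after knockdown (log2 fold change 1.55, edgeR adjusted p = 0.00102), as were KRT8 and KRT18 (0.24 and 0.25). Their part in the changes of the members was not tested, and in bulk RNA a change in cell number or state cannot be told apart from a change in RNA per cell. BEST1 was at 407.9 to 752.6 CPM, but it shares 1267 exonic bases with the abundant FTH1 gene on the opposite strand, so its level is uncertain. The endothelial markers PECAM1, VWF and CDH5 had at most 5 reads in any library.

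In human cells most amino acids have a separate cytosolic and mitochondrial synthetase, both encoded in the nucleus. KARS1 and GARS1 serve both compartments from a single gene, EPRS1 carries the glutamyl and the prolyl enzyme in 1 chain, and mitochondria have no glutaminyl enzyme and make glutaminyl-tRNA by amidation. Several cytosolic enzymes sit together with AIMP1, AIMP2 and EEF1E1 in the multisynthetase complex. Many cytosolic synthetase genes are known targets of ATF4, the transcription factor of the integrated stress response, which binds as a dimer with C/EBP factors to an element with the core TGATGNAA. The enzymes also fall into class I and class II, which differ in the fold of their catalytic domain.

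Because of this known control, the core TGATGNAA was searched for on both strands of the RefSeq promoters (GRCh38.p14, 250 bases before to 50 bases after each start site). Promoters of 33 members were at hand, and AARS2, LARS1, VARS1, VARS2 and YARS1 had none. The core was present in at least 1 listed promoter of 8 of the 33 (24.2%), against 1217 of 27305 genes (4.46%) in all. Of the 16 cytosolic synthetases with a promoter it was present in 7 (43.8%), of the 14 mitochondrial ones in 1 (7.14%) and of the 3 scaffold proteins in 0. With the open base fixed to C, the 8 letters TGATGCAA were in 6 cytosolic and 0 mitochondrial members and in 1.08% of all genes. The 8 matches follow, each with 10 flanking bases on either side, read 5′ to 3′ on the strand that carries the core, with the core in capitals.
AARS1, chr16:70289676-70289703, plus strand: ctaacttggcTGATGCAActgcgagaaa
CARS1, chr11:3057408-3057435, plus strand: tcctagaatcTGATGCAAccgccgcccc
GARS1, chr7:30594835-30594862, minus strand: gctcggagcaTGATGAAAtcgccgcgta
IARS1, chr9:92293693-92293720, plus strand: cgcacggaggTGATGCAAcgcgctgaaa
MARS1, chr12:57488054-57488081, minus strand: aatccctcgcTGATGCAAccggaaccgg
NARS1, chr18:57621805-57621832, minus strand: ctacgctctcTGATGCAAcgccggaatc
TARS1, chr5:33440957-33440984, minus strand: ctggaccagcTGATGCAAtcgaaaggcg
YARS2, chr12:32756077-32756104, minus strand: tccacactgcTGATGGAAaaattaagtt

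In CARS1, GARS1, IARS1, MARS1, NARS1 and TARS1 the match began within 33 bases of a listed RefSeq start site. In AARS1 and YARS2 it began 187 and 197 bases before the listed site. RefSeq and GENCODE starts can differ. The whole AARS1 window (70289676-70289703) lies inside the GENCODE gene, which starts at 70289707 on the minus strand. The match lay on the strand of the gene in NARS1 and YARS2 and on the opposite strand in the others. A match of letters is a description and does not show that a factor binds there.

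After EIF1 knockdown, 10 of the 19 cytosolic synthetases changed, and 7 of these fell. WARS1, the tryptophanyl enzyme, fell most, and GARS1, NARS1, MARS1, TARS1, IARS1 and FARSA fell by smaller amounts. AARS1, QARS1 and KARS1, the alanyl, glutaminyl and lysyl enzymes, rose. Among the 15 mitochondrial synthetases tested, MARS2, NARS2 and CARS2 fell and 0 rose. Of the scaffold proteins AIMP2 and EEF1E1 fell. The changes were small, and 0 of the 37 reached a fold change above 2 or below 0.5, the limit of the study, by edgeR, DESeq2 or limma, also at an unadjusted p under 0.05.

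The threshold for a call was an adjusted p of 0.05 in edgeR's quasi-likelihood test, with the Benjamini-Hochberg adjustment taken over all 16749 tested genes. By this rule 20.6% of all tested genes were called, 10.2% higher and 10.4% lower in the siEIF1 group. Among the 9983 genes with a mean count at or above that of the lowest tested member (259.5), 27.5% were called. Of the 37 tested members 40.5% were called, with 3 higher and 12 lower. The share was 52.6% of the cytosolic synthetases, 20.0% of the mitochondrial synthetases and 66.7% of the 3 scaffold proteins. The mitochondrial share was near the 20.6% of all tested genes and below the 27.5% of genes counted as well as the lowest member. The cytosolic genes are also counted more deeply (mean counts from 2065 to 14796) than the mitochondrial ones (259.5 to 3692), and the difference between the shares was not tested. In 20 of the 37 the libraries of the groups did not overlap, which held for 37.1% of all tested genes. Adding the fold limit leaves 1.71% of all tested genes.

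Log2 fold changes had a median of -0.067 in the cytosolic and -0.024 in the mitochondrial synthetases, beside 0.0033 over all tested genes, of which the middle 50% lay between -0.15 and 0.15. Cytosolic members ran from -0.42 to 0.40 and mitochondrial ones from -0.41 to 0.16. The summed CPM of the cytosolic synthetases went from 4521.4 ± 138 (NC) to 4236.4 ± 149 (siEIF1; SD, n = 3 each), or 93.7%. That of the mitochondrial ones went from 542.78 ± 7.20 to 527.73 ± 10.5 (SD, n = 3 each), or 97.2%. Neither sum overlapped between the groups, although the closest mitochondrial sums, 537.47 in NC replicate 2 and 536.93 in siEIF1 replicate 3, were almost equal.

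**Figure D1:**
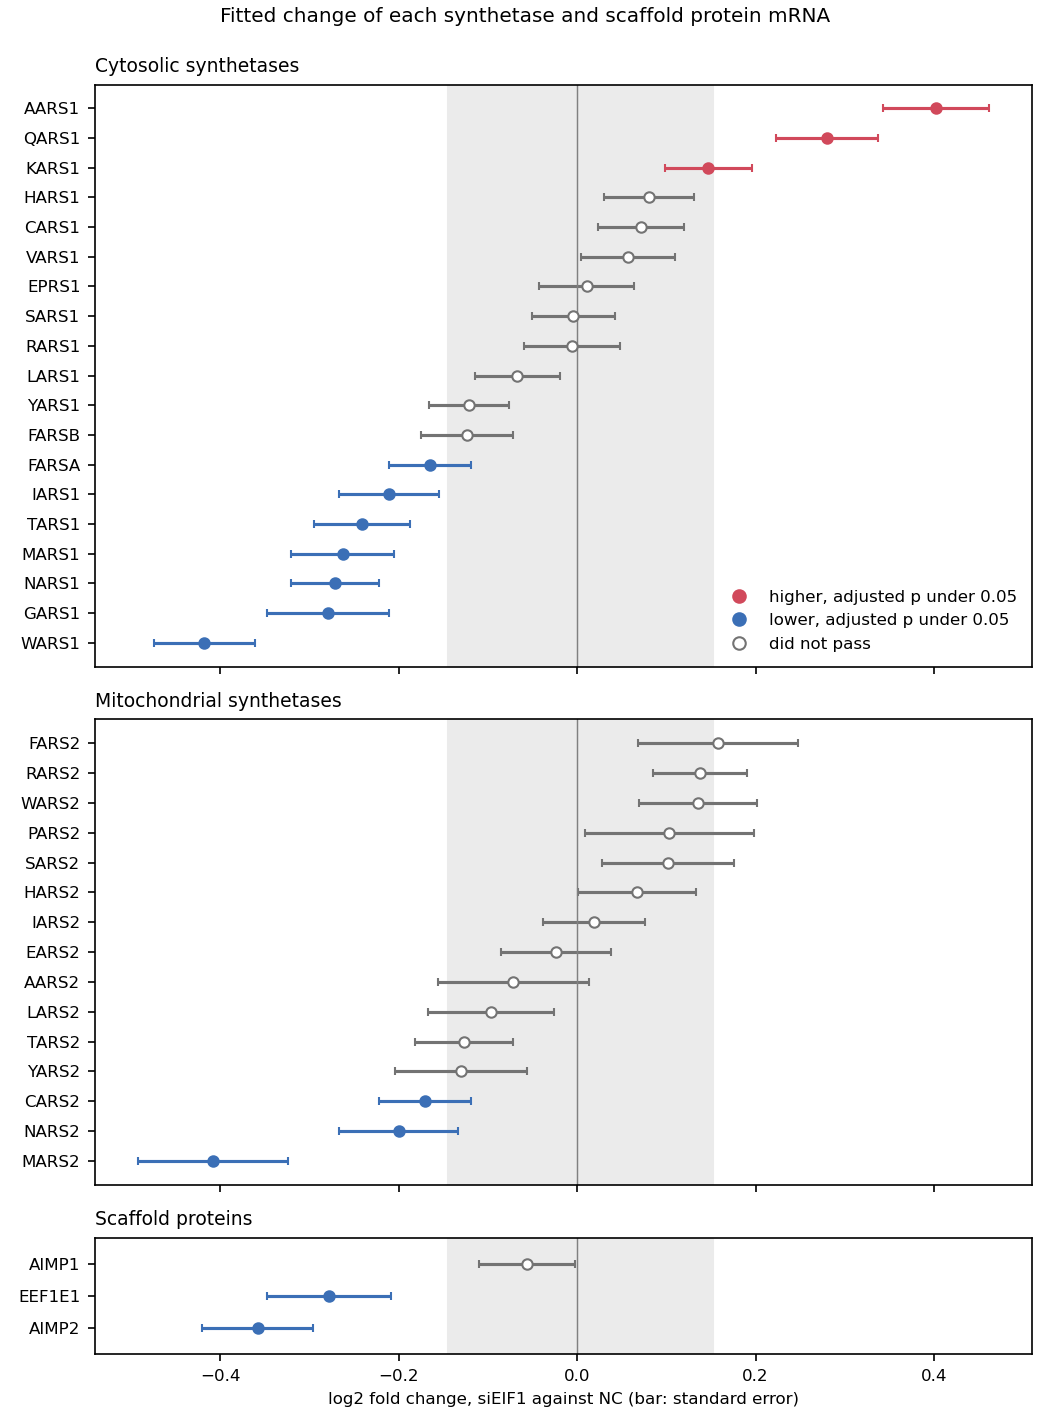
Log2 fold change of the 37 tested members (siEIF1 against NC, edgeR), with bars for the standard error, ordered by size within the cytosolic, mitochondrial and scaffold panels. Filled points passed an adjusted p of 0.05 (red higher, blue lower), open points did not, and the grey band holds the middle 50% of all tested genes; 3 cytosolic members lie to the right of 0 as filled points and 12 members to the left.

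The cytosolic enzymes that fell are described first. WARS1 (ENSG00000140105.18, chr14:100333790-100376805, minus strand) was at 273.5, 252.6 and 264.8 CPM in NC replicates 1 to 3 and at 193.3, 186.1 and 212.7 CPM in siEIF1 replicates 1 to 3. The highest siEIF1 library was still under the lowest NC library, and the level fell to 74.9% (log2 fold change -0.42, SE 0.0567, edgeR adjusted p = 0.000197). WARS1 is also known as an interferon-induced gene. It holds no TGATGNAA core in its listed promoters. Its exons share 287 bases with WDR25 on the opposite strand, whose log2 fold change was -0.23 (edgeR adjusted p = 0.0934).

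NARS1, the asparaginyl enzyme (ENSG00000134440.12, chr18:57600656-57622213, minus strand), was at 329.9, 312.8 and 313.5 CPM in the NC and at 265, 253 and 273.9 CPM in the siEIF1 libraries. Of the 5 cytosolic enzymes that fell most it had the smallest standard error, with a log2 fold change of -0.27 (SE 0.0494, edgeR adjusted p = 0.00169). GARS1, the glycyl enzyme of both compartments (ENSG00000106105.15, chr7:30580533-30634033, plus strand), was at 551.1, 467.2 and 493.3 CPM in the NC and at 427.8, 380.5 and 436.9 CPM in the siEIF1 libraries. Its change was of the same size (log2 fold change -0.28) but its error was larger (SE 0.0682, edgeR adjusted p = 0.0107), and NC replicate 1 stood above the other NC libraries. Without NC replicate 1 the value was -0.21 (edgeR adjusted p = 0.0547) and without siEIF1 replicate 2 it was -0.22 (edgeR adjusted p = 0.0612).

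MARS1, the methionyl enzyme (ENSG00000166986.15, chr12:57475445-57517569, plus strand), charges both the initiator and the elongator tRNA. It was at 305.9, 277 and 281.3 CPM in the NC and at 237.4, 226.5 and 256.5 CPM in the siEIF1 libraries (log2 fold change -0.26, SE 0.0578, edgeR adjusted p = 0.00589). The groups did not overlap. MARS1 exons share 355 bases, 5.05% of its exonic length, with DDIT3 on the opposite strand. DDIT3, which encodes the stress factor CHOP, fell from 125.7 ± 10.0 to 70.43 ± 1.57 CPM (SD, n = 3 each; log2 fold change -0.84, edgeR adjusted p = 8.97e-07). The libraries were strand-specific, but whether counting used the strand is not given in the sources used here, and the part of DDIT3 reads in the MARS1 counts was not tested.

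TARS1, the threonyl enzyme (ENSG00000113407.14, chr5:33440696-33468091, plus strand), was at 235.5, 213.6 and 209.7 CPM in the NC and at 189.6, 178.5 and 189.3 CPM in the siEIF1 libraries (log2 fold change -0.24, SE 0.054, edgeR adjusted p = 0.00658). IARS1, the isoleucyl enzyme of the multisynthetase complex (ENSG00000196305.19, chr9:92210207-92293854, minus strand), was at 505, 482.5 and 477.9 CPM in the NC and at 423, 393.2 and 450.1 CPM in the siEIF1 libraries (log2 fold change -0.21, SE 0.056, edgeR adjusted p = 0.0171). FARSA, the catalytic subunit of the phenylalanyl enzyme (ENSG00000179115.11, chr19:12922479-12934037, minus strand), changed least of the cytosolic enzymes that fell, from 94.9, 92.19 and 92 CPM to 84.69, 82.14 and 82.02 CPM (log2 fold change -0.17, SE 0.0458, edgeR adjusted p = 0.021). In each of these 3 genes all siEIF1 libraries were lower than all NC libraries. The IARS1 call was lost without NC replicate 1 (log2 fold change -0.19, edgeR adjusted p = 0.0691) and without siEIF1 replicate 2 (-0.16, adjusted p = 0.0882). With limma on log2(FPKM + 1) and log2(FPKM + 0.1) the calls of IARS1 (adjusted p = 0.0659 and 0.0671) and GARS1 (adjusted p = 0.0637 and 0.0643) were lost as well. FARSA missed the threshold without NC replicate 1, NC replicate 3 or siEIF1 replicate 2, at log2 fold changes of -0.15, -0.17 and -0.16 (edgeR adjusted p = 0.0636, 0.0654 and 0.0772). FARSB, the other subunit of the same enzyme, was at -0.12 (SE 0.0511, edgeR adjusted p = 0.110), and its groups did not overlap either.

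Of the 3 enzymes that rose, AARS1 and QARS1 kept their call under all 12 alternatives. AARS1 (ENSG00000090861.17, chr16:70251983-70289707, minus strand), which charges alanine and edits mischarged serine and glycine, was at 173.1, 183.8 and 185 CPM in the NC and at 218.4, 240.3 and 257.5 CPM in the siEIF1 libraries. The level rose to 132% (log2 fold change 0.40, SE 0.0599, edgeR adjusted p = 0.000398). The gene starts 44 bases from the start of DDX19B on the opposite strand, which had a log2 fold change of 0.13 (edgeR adjusted p = 0.137). QARS1, the glutaminyl enzyme of the complex (ENSG00000172053.18, chr3:49095932-49105130, minus strand), was at 144.6, 168.2 and 152.3 CPM in the NC and at 189.6, 193.1 and 182.2 CPM in the siEIF1 libraries (log2 fold change 0.28, SE 0.0569, edgeR adjusted p = 0.00354). KARS1, the lysyl enzyme (ENSG00000065427.15, chr16:75627474-75648643, minus strand), was at 172.7, 158.3 and 159.8 CPM in the NC and at 178.3, 180 and 185.1 CPM in the siEIF1 libraries. Its groups did not overlap, but the log2 fold change was small, 0.15 (SE 0.0487), and passed narrowly (edgeR adjusted p = 0.0482). The KARS1 call was lost under 10 of 12 alternatives, among them leaving out NC replicate 2 (0.12, edgeR adjusted p = 0.199), NC replicate 3 (0.13, adjusted p = 0.191) or any siEIF1 library (from 0.13 to 0.16, adjusted p = 0.0686 to 0.111).

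**Figure D2:**
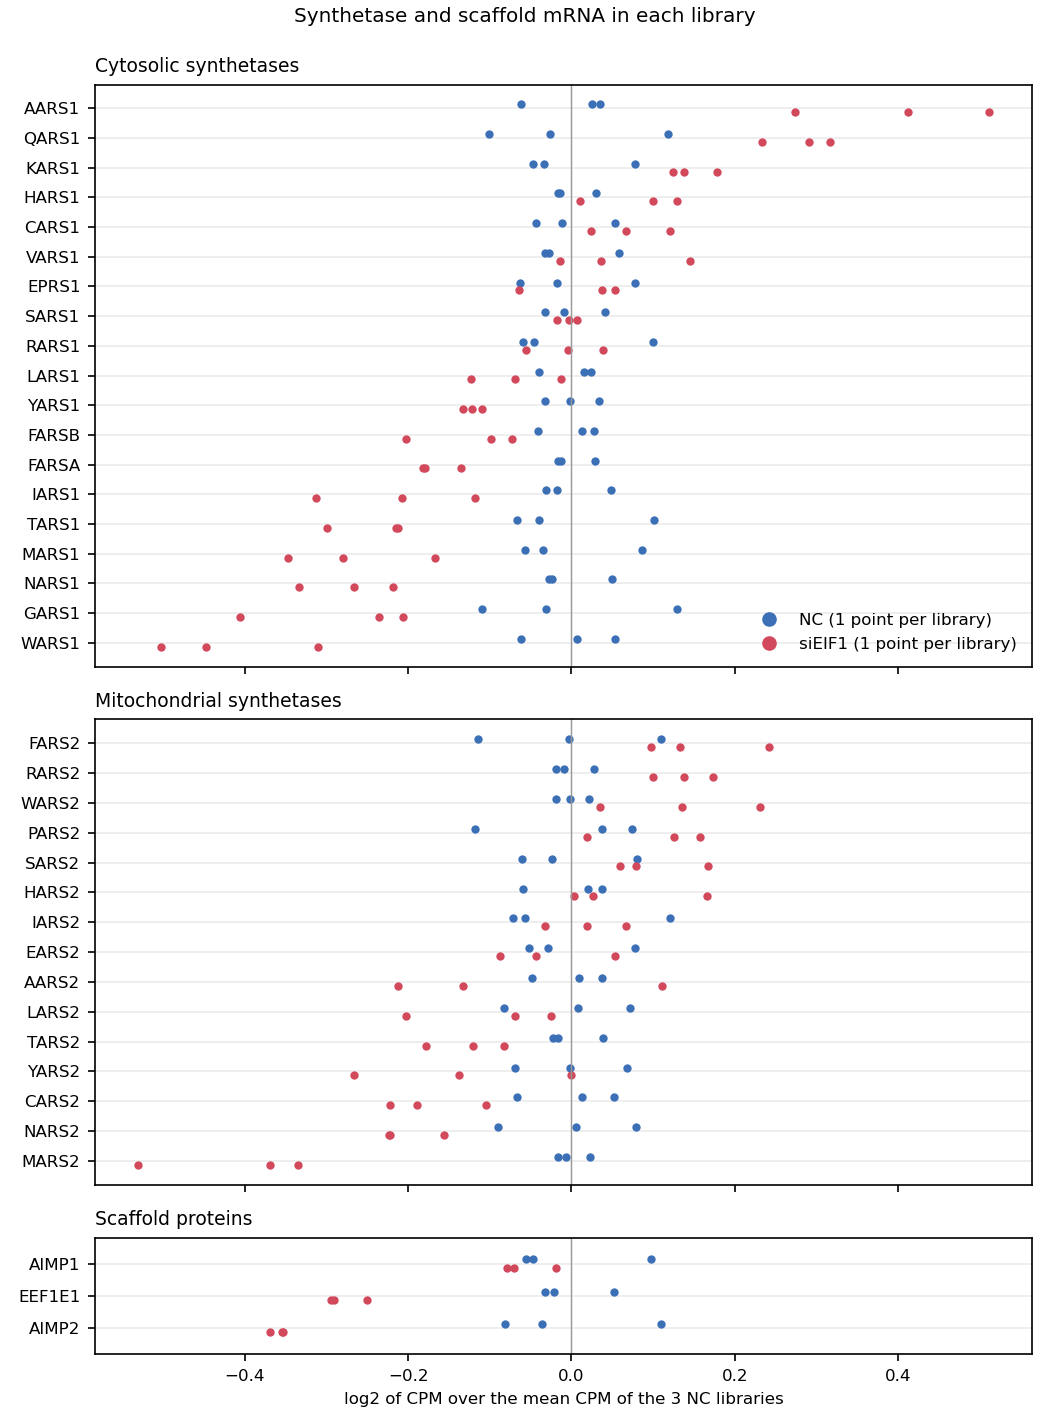
Level of the 37 tested members in every library, as log2 of CPM over the mean of the 3 NC libraries, with 1 point per library (blue NC, red siEIF1). AARS1 and QARS1 have all siEIF1 points to the right of all NC points, WARS1, NARS1, MARS2 and AIMP2 have them all to the left, and SARS1, RARS1 and EPRS1 overlap around 0.

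The other 9 cytosolic synthetases did not pass. Their log2 fold changes lay between -0.12 and 0.08 with standard errors of 0.0451 to 0.0538, and the 95% intervals together ran from -0.23 to 0.19. YARS1, the tyrosyl enzyme, came closest, from 302 ± 6.94 to 277.7 ± 2.24 CPM (SD, n = 3 each; log2 fold change -0.12, edgeR adjusted p = 0.0767). SARS1, the seryl enzyme, was the best counted of all members and hardly differed, at 99.7% of the NC level with a 95% interval of the log2 fold change from -0.10 to 0.10. RARS1 and EPRS1 were also close to 0, with intervals of -0.12 to 0.11 and -0.10 to 0.13.

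Enzymes in the multisynthetase complex moved in both directions. Of the 7 complex enzymes measured, 2 rose (QARS1 and KARS1), 2 fell (MARS1 and IARS1) and 3 did not pass (LARS1, RARS1 and EPRS1), with a median log2 fold change of -0.0059. Of the 12 enzymes outside it, 1 rose, 5 fell and 6 did not pass (median -0.12). By catalytic class, the 9 cytosolic class I enzymes held 1 higher and 3 lower member, and the 9 class II enzymes held 2 higher and 4 lower members, with EPRS1 left out because it holds a domain of each class.

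Set beside the promoter sequences above, 5 of the 7 cytosolic enzymes with a TGATGNAA core fell (TARS1, GARS1, IARS1, MARS1 and NARS1), AARS1 rose, and CARS1 did not pass (log2 fold change 0.07, SE 0.0482). Their median log2 fold change was -0.24. Of the 9 cytosolic enzymes without the core, 2 fell (WARS1 and FARSA), 2 rose and 5 did not pass, with a median of -0.0045. YARS2, the only mitochondrial enzyme with the core, was at -0.13 (SE 0.0736, edgeR adjusted p = 0.246). These counts were made with the changes already known and are given without a test.

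The scaffold proteins AIMP2 and EEF1E1 bind different synthetases in the complex. AIMP2 (ENSG00000106305.10, chr7:6009255-6023834, plus strand) was at 44.76, 39.21 and 40.47 CPM in the NC and at 32.47, 32.12 and 32.45 CPM in the siEIF1 libraries (log2 fold change -0.36, SE 0.0618, edgeR adjusted p = 0.00117). The siEIF1 libraries were almost equal to each other and all below the NC libraries. Of AIMP2's exonic bases, 29.1% overlap EIF2AK1 on the opposite strand, which had a log2 fold change of -0.05 (edgeR adjusted p = 0.495). EEF1E1 (ENSG00000124802.12, chr6:8073360-8102559, minus strand) was at 16.9, 17.04 and 17.93 CPM in the NC and at 14.54, 14.13 and 14.1 CPM in the siEIF1 libraries (log2 fold change -0.28, SE 0.0697, edgeR adjusted p = 0.0124). Without NC replicate 3 it was at -0.25 (edgeR adjusted p = 0.0632). Of its exonic bases, 18.8% are shared on the same strand with the readthrough gene EEF1E1-BLOC1S5, which had a mean of 447.5 counts beside 454.2 for EEF1E1 and a log2 fold change of -0.27 (edgeR adjusted p = 0.0464). How reads in the shared bases were assigned is not given in the sources used here. AIMP1, which binds the arginyl enzyme, was at -0.06 (SE 0.0538, edgeR adjusted p = 0.522). Of the scaffold proteins 0 rose, also at an unadjusted p under 0.05 and by DESeq2 or limma.

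MARS2, the mitochondrial methionyl enzyme (ENSG00000247626.5, chr2:197705369-197708395, plus strand), has 1 exon. It was at 13.17, 12.82 and 12.91 CPM in the NC and at 10.04, 8.97 and 10.28 CPM in the siEIF1 libraries. The level fell to 75.3% (log2 fold change -0.41, SE 0.0841, edgeR adjusted p = 0.00388), which is the largest change among the mitochondrial members tested. NARS2, the asparaginyl enzyme (ENSG00000137513.10, chr11:78435620-78575194, minus strand), was at 23.34, 24.94 and 26.25 CPM in the NC and at 22.3, 21.28 and 21.3 CPM in the siEIF1 libraries (log2 fold change -0.20, SE 0.0667, edgeR adjusted p = 0.0493). CARS2, the cysteinyl enzyme (ENSG00000134905.17, chr13:110641412-110713603, minus strand), was at 99.98, 105.6 and 108.5 CPM in the NC and at 97.34, 89.74 and 91.86 CPM in the siEIF1 libraries (log2 fold change -0.17, SE 0.0516, edgeR adjusted p = 0.0318). In all 3 genes the groups did not overlap, but in NARS2 and CARS2 the gap between the nearest libraries was small. The NARS2 call was lost without any 1 of NC replicates 2 and 3 and siEIF1 replicates 1 to 3 (log2 fold change from -0.22 to -0.16, edgeR adjusted p = 0.0551 to 0.203). It was also lost with DESeq2 (adjusted p = 0.0982), with no filter on low counts (edgeR adjusted p = 0.0692) and with limma at either pseudocount (adjusted p = 0.0683 and 0.0688). The CARS2 call was lost without NC replicate 2, NC replicate 3, siEIF1 replicate 2 or siEIF1 replicate 3 (-0.17 to -0.15, edgeR adjusted p = 0.0519 to 0.149), and with limma at either pseudocount (adjusted p = 0.0847 and 0.0858).

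The other 12 mitochondrial synthetases tested lay between -0.13 and 0.16, with standard errors of 0.053 to 0.0944 and 95% intervals that together ran from -0.29 to 0.35. RARS2, the arginyl enzyme, had the smallest adjusted p of these 12, at 39.19, 40.19 and 38.91 CPM in the NC and 44.47, 43.39 and 42.26 CPM in the siEIF1 libraries (log2 fold change 0.14, SE 0.053, edgeR adjusted p = 0.0866). It was the 1 mitochondrial member that was higher at an unadjusted p under 0.05, and 0 were called higher by edgeR, DESeq2 or limma. FARS2, PARS2 and AARS2 had the largest standard errors of the 12, and their 95% intervals (-0.04 to 0.35, -0.10 to 0.31 and -0.25 to 0.11) take in changes of the size called among the cytosolic enzymes. Intervals of others did so too, such as YARS2 (-0.29 to 0.03), LARS2 (-0.25 to 0.06) and WARS2 (-0.01 to 0.28). HARS1 and HARS2 start 107 bases apart on opposite strands of chromosome 5, and their log2 fold changes were 0.08 (SE 0.0504) and 0.07 (SE 0.0661), neither past the threshold. SARS2 shares 48.2% of its exonic bases with ENSG00000269547 on the same strand, and VARS2 shares 63.0% with a long noncoding RNA gene, so their counts are uncertain.

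For 13 amino acids both a cytosolic and a mitochondrial enzyme were tested, which makes 14 pairs because FARSA and FARSB share FARS2. In 2 pairs, those for methionine and asparagine, both enzymes fell, though the NARS2 call was lost under 9 of 12 alternatives. In 5 pairs the cytosolic enzyme alone passed, in 1 pair (cysteine) the mitochondrial enzyme alone passed, and in 6 pairs neither did. In 0 pairs did the enzymes pass in opposite directions. With 0 mitochondrial enzymes called higher, this could occur only where the cytosolic enzyme rose. Of the cytosolic enzymes that rose, AARS1 alone was in a pair. The log2 fold changes had the same sign in 6 of the 14 pairs. For tryptophan, WARS1 was at -0.42 and WARS2 at 0.14 (SE 0.0663, edgeR adjusted p = 0.177). For alanine, AARS1 was at 0.40 and AARS2 at -0.07 (SE 0.0849, edgeR adjusted p = 0.612). The difference within a pair was not tested.

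**Figure D3:**
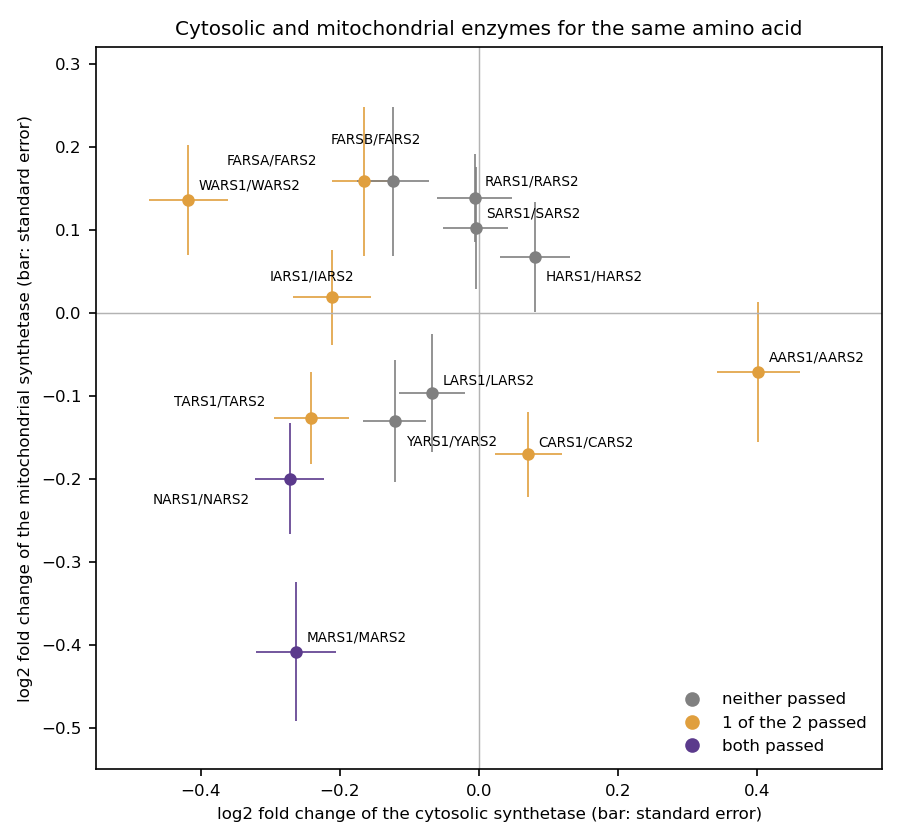
Log2 fold change (siEIF1 against NC) of the cytosolic enzyme on the horizontal and of the mitochondrial enzyme for the same amino acid on the vertical axis, for 14 pairs, with standard errors as bars. The methionine and asparagine pairs (purple) lie in the lower left with both enzymes below 0, and AARS1/AARS2 and WARS1/WARS2 lie at opposite ends of the horizontal axis.

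Levels between genes can only be set side by side per length. The ratio of CPM to FPKM gave the length behind each FPKM value. In 34 of the 37 tested members it was 1.22 to 1.24 times the length of the joined exons of all GENCODE 44 transcripts, with RARS2 (0.206), NARS2 (0.235) and YARS1 (1.14) apart, so the deposited FPKM scales with joined exons and not with 1 transcript. On that scale the cytosolic enzymes ran from 4.02 FPKM (HARS1) to 109.3 FPKM (SARS1) in the NC group and the mitochondrial ones from 1.58 FPKM (LARS2) to 25.19 FPKM (IARS2). Per kb of the canonical transcript, the cytosolic levels ran from 12.44 (FARSB) to 268.1 CPM per kb (SARS1) with a median of 63.32, and the mitochondrial ones from 3.67 (PARS2) to 56.95 CPM per kb (CARS2) with a median of 8.81. The scaffold proteins were at 34.62 (AIMP2), 27.86 (AIMP1) and 16.52 CPM per kb (EEF1E1).

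The order at the top was SARS1 (268.1 ± 7.02 CPM per kb), GARS1 (206.7 ± 17.6), YARS1 (123.6 ± 2.84), NARS1 (115.4 ± 3.50) and IARS1 (109 ± 3.24; all SD, n = 3, NC). TARS1 (82.19 ± 5.21) and KARS1 (82.17 ± 3.97) were equal within their spread, as were RARS1 (53.71 ± 3.31), AARS1 (52.56 ± 1.91), CARS1 (52.15 ± 1.78), FARSA (51.37 ± 0.894), EPRS1 (50.92 ± 2.56) and LARS1 (50.52 ± 1.2). In the siEIF1 group AARS1 moved out of that cluster to 69.46 ± 5.70 CPM per kb, close to TARS1 at 69.54 ± 2.37, and WARS1 dropped from 99.91 ± 3.97 to 74.79 ± 5.22, below KARS1 (90.98 ± 1.79). The scale changes the place of several genes, also at the top. By FPKM in the NC group GARS1, YARS1 and IARS1 ranked 13, 10 and 16 among all members. SARS1 and NARS1 ranked 1 and 2 on that scale. HARS1 had 0.703 times the level of HARS2 by FPKM but 35.65 against 10.51 CPM per kb of canonical transcript.

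**Figure D4:**
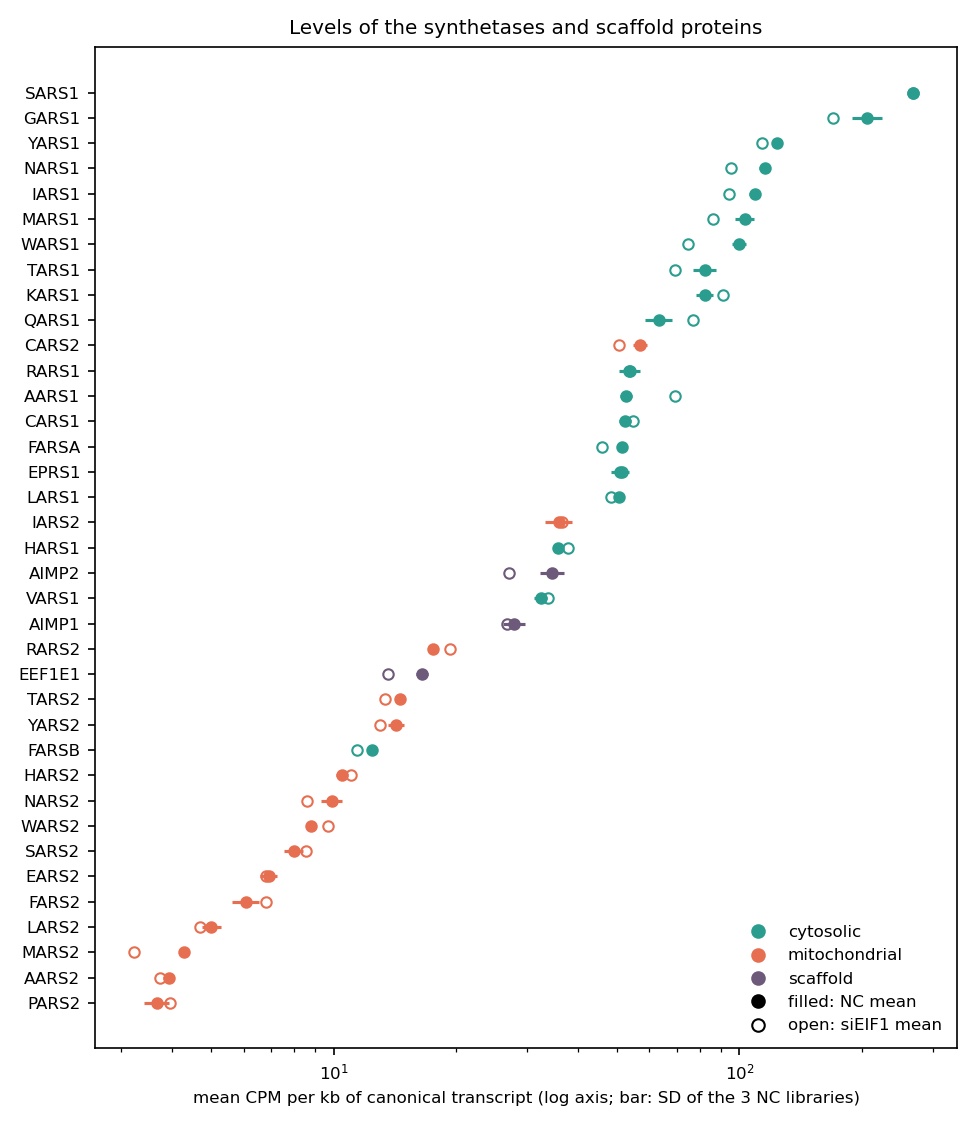
Mean level of the 37 tested members in CPM per kb of canonical transcript (log axis), ordered by the NC mean, with filled points for NC (bar: SD of 3 libraries) and open points for siEIF1, coloured by class. Cytosolic enzymes fill the top of the order from SARS1 at 268.1 and mitochondrial ones the bottom, while CARS2 at 56.95 and FARSB at 12.44 lie among members of the other class.

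Other genes that prepare, proofread or deliver charged tRNA were read from a list of 22, of which 21 were tested. Of these 1 rose and 5 fell. The share called, 28.6%, was near that of all genes counted at least as well as the lowest member (27.5%), beside 20.6% of all tested genes. TARS3, a cytosolic paralog of TARS1, rose from 12.46 ± 0.163 to 15.35 ± 0.395 CPM (SD, n = 3 each; log2 fold change 0.30, edgeR adjusted p = 0.00976), while TARS1 fell. SEPHS2, the selenophosphate synthetase needed for selenocysteinyl-tRNA, changed most, from 111.8 ± 14.9 to 67.59 ± 3.43 CPM (log2 fold change -0.73, edgeR adjusted p = 3.40e-05). TRNT1, which adds the CCA end that synthetases charge, was at -0.38, XPOT, the tRNA exporter, at -0.35, QRSL1, a subunit of the mitochondrial amidotransferase, at -0.30, and AARSD1, an alanyl editing protein, at -0.25 (edgeR adjusted p from 0.00129 to 0.0125). EEF1A1, which carries charged tRNA to the ribosome, was at 99.3% of the NC level (log2 fold change -0.0094, SE 0.0529).

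A list of 12 genes around GCN2 and ATF4 was set beside the members. ATF4 itself rose (log2 fold change 0.24, SE 0.0512, edgeR adjusted p = 0.00513), while 10 of the others fell, among them CHAC1 (-0.78), ASNS, the asparagine synthetase (-0.35, edgeR adjusted p = 0.00229), and TRIB3 (-0.43), and EIF2AK4, which encodes GCN2, did not pass. The share called was 91.7%, beside 20.6% of all tested genes and 27.5% of those counted at least as well as the lowest member. The part of the 12 genes in the change of the synthetases was not tested.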

How the data were processed

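Polyadenylated RNA was sequenced and compared between 3 NC and 3 siEIF1 libraries, assigned by sample title. The authors removed reads with more than 2 undetermined bases, trimmed with FASTX-Toolkit 0.0.13, dropped reads under 16 nt, aligned 150 nt paired reads to GRCh38 with HISAT2, and deposited raw counts of uniquely mapped reads per gene. The authors also deposited FPKM values per gene. The counting program, its strand setting and the annotation release are not given in the sources used here. 0 columns were unmatched.

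Members were matched by symbol, and members, lists and tests were chosen with earlier results of these data known. Counts were filtered with filterByExpr, scaled by TMM (factors 0.981 to 1.02) and fitted with edgeR 4.0.16 in R 4.3.3 (quasi-likelihood test, Benjamini-Hochberg over all 16749 tested genes). CPM values use TMM-scaled library sizes. Standard errors come from the F statistic, and 95% intervals from its degrees of freedom. The study used DESeq2, which was run as an alternative (1.42.0), as were RLE normalization, no filter, limma 3.58.1 on log2(FPKM + 1) and log2(FPKM + 0.1) for genes with a mean FPKM of at least 0.1, a replicate block, and leaving out each library. The test was tested on simulated data. Replicates differed by more than counting noise (chi-square per degree of freedom 3.00 to 14.1), and p-values measure the spread between these libraries. Coordinates, exon overlaps and canonical transcripts are from GENCODE 44 (GRCh38), and promoters from RefSeq (GRCh38.p14). Named are EIF1, all members (full statistics for those called) and called genes of the other lists; genes that overlap or adjoin a member, uncalled genes singled out and those without a call in the other lists were chosen after their values were seen. Protein sequences were not used here.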

Additional observations from a re-analysis of the deposited data

How the results depend on the processing

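Of the 15 called members, 8 passed under all 12 alternatives (AARS1, QARS1, WARS1, NARS1, MARS1, TARS1, MARS2 and AIMP2), and 7 lost the call under at least 1. With limma on log2(FPKM + 1) or log2(FPKM + 0.1), 5 cytosolic synthetases were called lower in place of 7, 1 mitochondrial synthetase in place of 3, and 902 and 909 genes in all were called higher in place of 1702. The mitochondrial median was -0.0542 with no filter on low counts and -0.052 with DESeq2, and VARS2 enters in both. With the fold limit, 67 genes were higher and 219 lower in place of 1702 and 1744. With DESeq2 YARS1 passed (adjusted p = 0.0439) while NARS2 (0.0982) and KARS1 (0.0511) did not. With each library left out, the cytosolic synthetases called numbered 2 to 3 higher and 4 to 7 lower (4 without NC replicate 1 or without siEIF1 replicate 2), the mitochondrial ones 1 to 3 lower, the scaffold proteins 1 to 2 lower, the other charging genes 4 to 6 lower, and all genes 1118 to 1709 higher and 1124 to 1763 lower. The medians ran from -0.0954 to -0.0404 (cytosolic) and -0.0646 to 0.00611 (mitochondrial), and EIF1 from -3.61 to -3.56. Apart from VARS2 entering, the causes were not tested. Members that did not pass and lay near 0 changed sign: EPRS1 with limma (-0.0096 and -0.0098), and when a library was left out EPRS1 (-0.0207 to 0.0504), RARS1 (-0.0400 to 0.0455), SARS1 (-0.0264 to 0.0157), EARS2 (-0.0646 to 0.0157) and IARS2 (-0.0166 to 0.0821).

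The replicate numbers are not stated to mark shared cultures. Deviations from the group means correlated at 0.149, 0.0946 and 0.128 for the same number, and every library correlated best with its own number, which is a hint from the data only. With the replicate block 16 members were called, the 15 and YARS1 (adjusted p = 0.0442). Genes with few counts, such as PARS2 (259.5 on average), have the widest errors.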

Other observations

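Several members start close to a gene on the opposite strand, and the values of these neighbours were read as well. EARS2 starts 10 bases from UBFD1, which fell (log2 fold change -0.29, SE 0.0502, edgeR adjusted p = 0.00116), while EARS2 was at -0.02 (SE 0.0619, adjusted p = 0.832). RARS2 starts 39 bases from ORC3, an origin recognition subunit, at -0.08 (adjusted p = 0.401), with RARS2 at 0.14. FARS2 starts 94 bases from LYRM4, at 0.07 (adjusted p = 0.469), and SARS2 starts 181 bases from MRPS12, a mitochondrial ribosomal protein, at -0.10 (adjusted p = 0.268). AIMP2 starts 125 bases from the mismatch repair gene PMS2, at -0.16 (SE 0.0805, adjusted p = 0.189), with AIMP2 at -0.36. Of these neighbours UBFD1 alone passed the threshold. YARS1 shares 396 exonic bases with S100PBP on the opposite strand, which fell (log2 fold change -0.41, edgeR adjusted p = 0.000267), with YARS1 at -0.12. AIMP1 shares 476 exonic bases with TBCK on the opposite strand, which rose (log2 fold change 0.20, adjusted p = 0.0251), with AIMP1 at -0.06.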
